A study of Mus musculus with 4 samples.

Results

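The 10 genes described here are grouped as negative regulators of inflammatory signalling and of inflammatory mRNA, and their function was not measured. They were taken by name from a list written with earlier results of these data known. Each was stood for by its probe set with exactly 1 gene symbol. All 10 were measured, each by 1 probe set, among 19938 genes in all. Arrays from the marrow of C57BL/6N mice were compared between animals given PBS (replicates 1 and 3) and animals given LPS (replicates 1 and 2), which is 2 arrays a group. Each mouse got 1 intraperitoneal injection, and cells were taken after 8 h. The LPS dose was 50 µg, made of equal parts from the Gram-negative bacteria E. coli K12 and S. minnesota. No genetic change is labelled in either group, and neither the age of the mice nor whether a sample was 1 mouse is given. The p-values thus measure only the spread between these samples, which may be technical.

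LPS is sensed by the receptor TLR4, and signals from TLR4 and from the TNF receptor run through chains of ubiquitin to the kinases that free the transcription factor NF-kappaB. A20, encoded by Tnfaip3, and the deubiquitinase CYLD edit or remove these chains. The ABIN proteins, encoded by Tnip1, Tnip2 and Tnip3, are named for binding A20. Closer to the receptors, IRAK-M (Irak3), TIPE2 (Tnfaip8l2) and the adaptor TRAF1 restrain the signal, although TRAF1 can also carry it. Tristetraprolin (Zfp36) and Regnase-1 (Zc3h12a) act later, on the mRNAs of cytokines: the former binds AU-rich elements and recruits deadenylases, and the latter cuts stem-loops. Several of these genes, among them Tnfaip3, are themselves switched on by NF-kappaB, so that the response feeds back on itself.

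After LPS, 4 of the 10 genes rose and 0 fell: Tnip3, Tnfaip3, Traf1 and Tnip1. A gene was called where its adjusted p (limma, Benjamini-Hochberg over all genes) was under 0.05. Over all 19938 genes 2.39% rose and 1.27% fell, so 3.66% were called in either direction. The members, and the lists below, were chosen with earlier results of these data known, so no set was tested against these shares. The members' median log2 fold change was 0.22, beside -0.0081 over all genes, and it ran from -0.26 for Tnfaip8l2 to 2.61 for Tnip3. With 1 array left out that median ran from 0.19 to 0.32, the latter without PBS replicate 1. A call with at least a 2-fold rise was made for 1 member, Tnip3, and for 0.848% of all genes. The arrays of the groups did not overlap in 7 of the 10, against 44.9% of all genes: 6 of these were higher (20.4% of all genes) and 1 was lower (24.5%). In whole marrow, more cells of a type and more RNA per cell cannot be told apart.

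Promoter sequences are shown for the 4 genes that rose, and for Cyld, which did not pass but holds an NF-kappaB match. RefSeq (GRCm38.p6) gave 12 promoter windows for the 10 genes, with an additional start for Tnfaip3 and for Irak3. The 250 bases before each start were searched on both strands for the NF-kappaB consensus, AP-1 (TGANTCA), the interferon element ISRE (GAAA, any 2 bases, GAAA) and the serum response element CArG. An NF-kappaB match lay in 4 of the 12 windows, those of Tnfaip3, Tnip1, Tnip3 and Cyld, against 7.25% of all 32851 windows of the same length. AP-1 was found in the upstream window of Tnfaip3, against 6.75% of all windows, and CArG in that of Zfp36, against 1.47%. ISRE was in 0 of the 12 windows and in 2.98% of all. The sequences run 5′ to 3′ along the gene's strand and end at the base before the start, and capitals mark every match to these motifs.
Tnfaip3 (chr10:19015411-19015660, minus strand): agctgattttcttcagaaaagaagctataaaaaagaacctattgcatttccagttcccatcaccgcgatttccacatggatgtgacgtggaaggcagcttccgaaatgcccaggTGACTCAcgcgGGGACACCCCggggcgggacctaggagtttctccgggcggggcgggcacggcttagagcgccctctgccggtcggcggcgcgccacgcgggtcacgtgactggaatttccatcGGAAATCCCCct
Tnip1 (chr11:54962941-54963190, minus strand): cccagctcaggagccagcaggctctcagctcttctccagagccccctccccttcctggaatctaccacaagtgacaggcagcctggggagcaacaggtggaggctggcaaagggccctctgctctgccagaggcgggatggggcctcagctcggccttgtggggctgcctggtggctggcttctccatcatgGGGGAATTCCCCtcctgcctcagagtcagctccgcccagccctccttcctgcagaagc
Tnip3 (chr6:65590148-65590397, plus strand): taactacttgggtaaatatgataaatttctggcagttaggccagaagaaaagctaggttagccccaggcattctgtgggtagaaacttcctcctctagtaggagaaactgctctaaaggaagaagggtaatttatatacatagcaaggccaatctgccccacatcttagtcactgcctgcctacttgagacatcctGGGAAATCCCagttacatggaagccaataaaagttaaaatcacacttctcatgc
Traf1 (chr2:34961773-34962022, minus strand): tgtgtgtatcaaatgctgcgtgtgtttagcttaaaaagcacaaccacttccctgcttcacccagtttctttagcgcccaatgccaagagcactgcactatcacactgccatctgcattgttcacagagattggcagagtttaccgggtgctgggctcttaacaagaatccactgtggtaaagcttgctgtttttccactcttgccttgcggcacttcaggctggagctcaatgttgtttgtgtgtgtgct
Cyld (chr8:88696778-88697027, plus strand): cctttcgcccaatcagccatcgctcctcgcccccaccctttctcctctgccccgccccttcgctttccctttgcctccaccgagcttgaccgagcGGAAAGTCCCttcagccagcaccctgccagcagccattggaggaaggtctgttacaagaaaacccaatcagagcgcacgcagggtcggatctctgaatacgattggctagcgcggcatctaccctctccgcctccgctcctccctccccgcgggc

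In Tnfaip3 the run TGACTCA is the AP-1 match. Its NF-kappaB matches were GGGACACCCC, from 125 to 116 bases before the start, and GGGGATTTCC, from 12 to 3 bases before it on the opposite strand. In Tnip1 3 matches overlapped within 58 to 47 bases before the start, where GGGGAATTCC reads on both strands. Tnip3 held GGGAAATCCC at 54 to 45 bases before the start. Cyld held GGGACTTTCC on the opposite strand, 155 to 146 bases before the start. Among the 15614 tested genes with a window, 4.05% of the 1481 with an NF-kappaB match rose, against 2.10% of the 14133 without. For AP-1 the shares were 3.87% of 1112 and 2.17% of 14502. A match is a run of letters and not a measured binding site.

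Of the genes that edit ubiquitin, Tnfaip3 rose and Cyld did not pass. Tnfaip3 had log2 values of 8.74 and 8.67 in PBS replicates 1 and 3 and of 9.46 and 9.73 in LPS replicates 1 and 2. The LPS arrays were the higher pair, and the gap between the groups, 0.73, was larger than the distance between arrays of a group, 0.064 in PBS and 0.26 in LPS. From 8.70 ± 0.045 to 9.60 ± 0.19 (SD, n = 2 each), the level rose by 0.89 log2 or 1.86-fold (SE 0.110, 95% interval 0.64 to 1.15, limma adjusted p = 0.00427). In either direction, 1.25% of all genes changed by more. Cyld had log2 values of 9.92 and 9.99 after PBS and of 10.07 and 9.95 after LPS, so that the groups overlapped. Its log2 fold change was 0.05 (SE 0.0922, 95% interval -0.16 to 0.27, limma adjusted p = 0.87), and it turned to -0.0048 without LPS replicate 1.

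**Figure D1:**
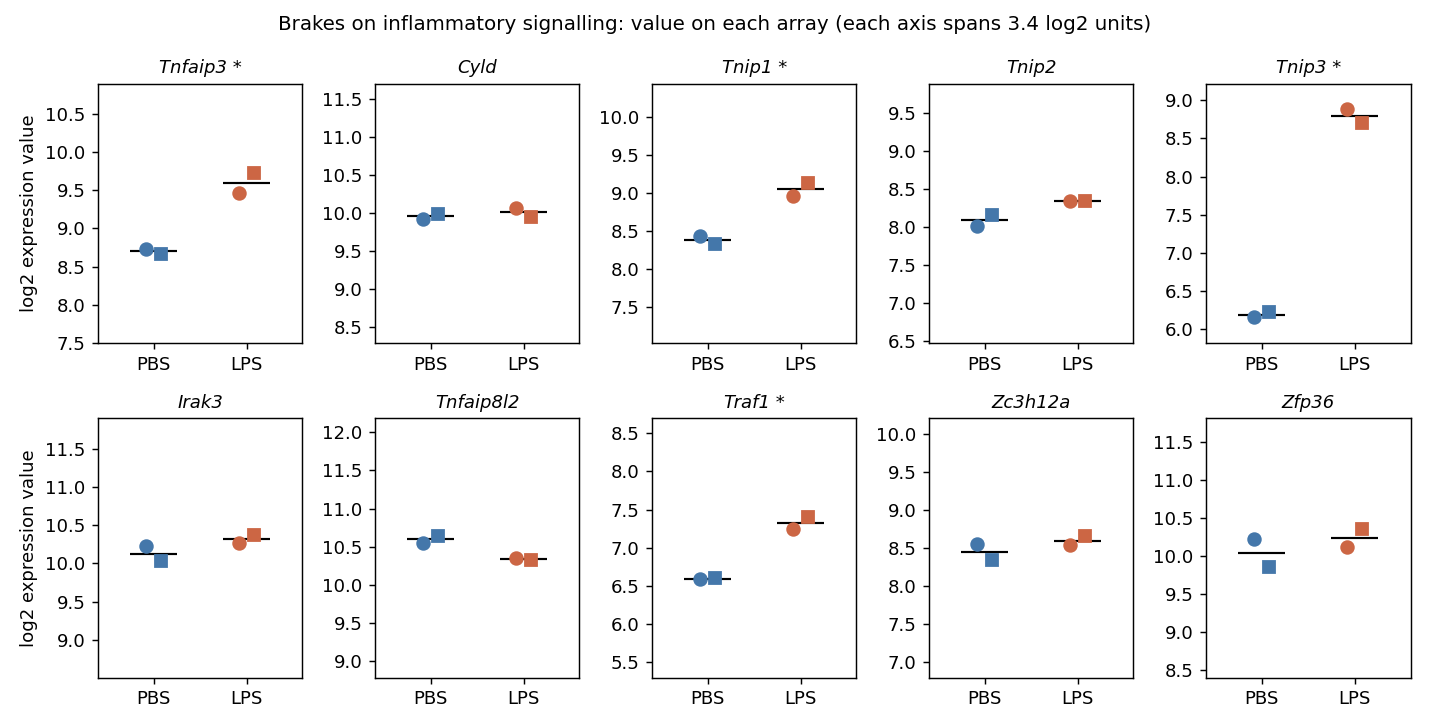
Log2 expression value (vertical axes, each spanning the same range) of the 10 genes on the 4 arrays: blue points are PBS (circle, replicate 1; square, replicate 3), orange points LPS (circle, replicate 1; square, replicate 2), black lines are group means and asterisks mark genes with an adjusted p under 0.05. Tnip3 moved from 6.19 to 8.79, while the groups of Cyld, Zc3h12a and Zfp36 overlapped.

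Among the A20-binding adaptors Tnip3 rose most, Tnip1 rose less and Tnip2 did not pass. Tnip3 had log2 values of 6.15 and 6.22 after PBS and of 8.88 and 8.70 after LPS. The gap of 2.49 between the groups was many times the distance between arrays of a group. Its mean moved from 6.19 ± 0.046 to 8.79 ± 0.13 (SD, n = 2 each), a rise of 2.61 log2 or 6.09-fold (SE 0.0984, 95% interval 2.38 to 2.84, limma adjusted p = 1.54e-05). In either direction 0.100% of all genes changed by more. The PBS level lay under the lower quartile of genes, 6.66 to 6.72 over the arrays, and no background level was used, which leaves the size of the fold uncertain.

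Tnip1 had log2 values of 8.43 and 8.33 after PBS and of 8.96 and 9.13 after LPS, again with no overlap. The mean moved from 8.38 ± 0.067 to 9.05 ± 0.12 (SD, n = 2 each), by 0.66 log2 or 1.58-fold (SE 0.0996, 95% interval 0.43 to 0.90, limma adjusted p = 0.0110). This call was lost with all 35556 probe sets in the fit (adjusted p = 0.0711). Over all alternatives the adjusted p of Tnip1 ran from 0.00625 to 0.386. For Tnip2, the PBS arrays stood at 8.02 and 8.16 and the LPS arrays at 8.34 and 8.34. They did not overlap, but the log2 fold change of 0.25 (SE 0.0933, 95% interval 0.04 to 0.47) had an adjusted p of 0.236 in limma. The interval holds for this gene alone, while the adjusted p allows for all genes tested.

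The changes of related members were also set against each other within arrays, for 5 pairs chosen after the values were seen. Tnip3 rose by 1.94 log2 more than Tnip1 (1.69 to 2.20 over the 4 combinations of an LPS with a PBS array) and by 2.35 more than Tnip2 (2.22 to 2.48). These sizes share the uncertainty of the low PBS level of Tnip3. Tnip1 exceeded Tnip2 by 0.41 (0.21 to 0.62), and Tnfaip3 exceeded Cyld by 0.84 (0.58 to 1.09). In these 4 pairs the LPS and PBS arrays did not overlap, and the exact permutation test (two-sided) gave p = 0.333, adjusted 0.416, which is as low as 2 arrays against 2 can go before adjustment, so the test could not pass. For Zfp36 against Zc3h12a the difference was 0.05 (-0.09 to 0.18, exact permutation p = 0.667).

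Of the brakes near the receptors, Traf1 rose, and neither Irak3 nor Tnfaip8l2 passed. Traf1 had log2 values of 6.58 and 6.60 after PBS and of 7.24 and 7.41 after LPS. The gap between the groups was 0.65. From 6.59 ± 0.0089 to 7.33 ± 0.12 (SD, n = 2 each), Traf1 rose by 0.73 log2 or 1.66-fold (SE 0.0955, 95% interval 0.51 to 0.96, limma adjusted p = 0.00537). As with Tnip3, its PBS level lay under the lower quartile of genes.

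Irak3 stood at 10.22 and 10.04 after PBS and at 10.27 and 10.37 after LPS. The groups were apart by 0.044, less than the 0.19 between the PBS arrays. Its log2 fold change was 0.19 (SE 0.101, 95% interval -0.05 to 0.42, limma adjusted p = 0.44). Tnfaip8l2 was the member with a negative value. It stood at 10.55 and 10.64 after PBS and at 10.35 and 10.33 after LPS, with no overlap. The log2 fold change of -0.26 (SE 0.0889, 95% interval -0.47 to -0.05) did not pass over all genes (limma adjusted p = 0.201).

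**Figure D2:**
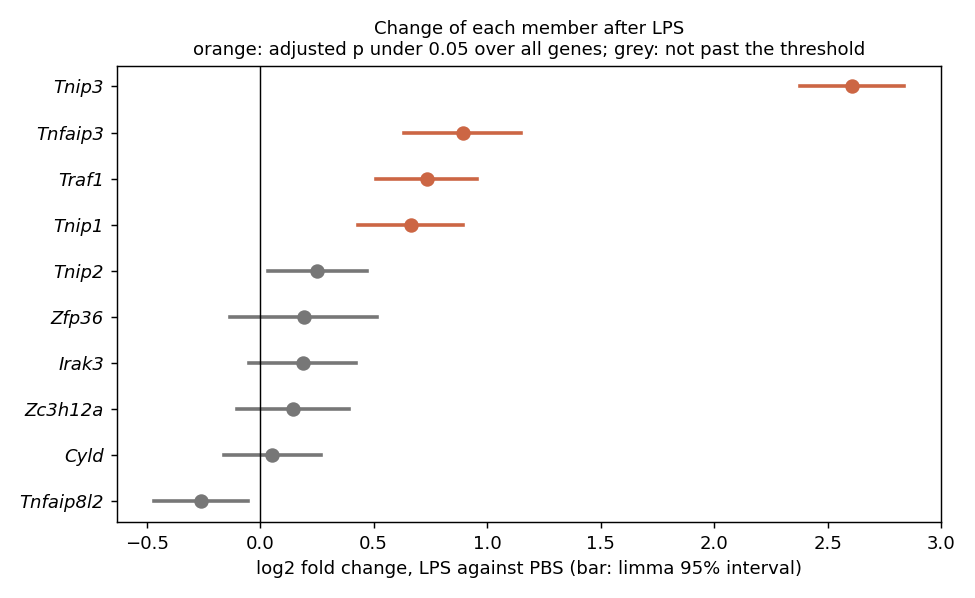
Log2 fold change of each gene after LPS against PBS (horizontal axis; points) with its 95% interval from limma (bars); orange marks an adjusted p under 0.05 over all 19938 genes and grey the rest. The 4 genes that passed lie at 0.66 and above, and the 6 others between -0.26 and 0.25.

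Neither regulator of mRNA decay passed. Zfp36 stood at 10.22 and 9.86 after PBS and at 10.12 and 10.35 after LPS. The 0.36 between its PBS arrays was larger than the 0.19 between the group means (SE 0.139, 95% interval -0.13 to 0.51, limma adjusted p = 0.591). Zc3h12a stood at 8.56 and 8.35 after PBS and at 8.54 and 8.65 after LPS. Its groups overlapped as well, with a log2 fold change of 0.14 (SE 0.105, 95% interval -0.10 to 0.39, limma adjusted p = 0.592). In both genes PBS replicate 1 was the higher PBS array and LPS replicate 2 the higher LPS array, as in Tnfaip3, Tnip1 and Irak3. Without PBS replicate 3, the values fell to 0.013 for Zfp36 and 0.040 for Zc3h12a, and without PBS replicate 1 they were 0.37 and 0.25.

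The mRNAs that these regulators are known to act on were measured beside them. Of 17 such targets, 7 rose and 0 fell, with a median log2 fold change of 0.28. Over all genes 2.39% rose and 1.27% fell. Ccl3, a chemokine gene, stood at 8.64 and 8.97 after PBS and at 11.31 and 11.66 after LPS, a rise of 2.68 log2 (SE 0.150, limma adjusted p = 6.92e-05). Il6, the cytokine gene whose mRNA Regnase-1 cuts, stood at 4.995 and 5.04 after PBS and at 6.51 and 6.45 after LPS, a rise of 1.46 (SE 0.0878, adjusted p = 9.56e-05). Its PBS level too lay under the lower quartile of genes. Tnf, the classical target of tristetraprolin, stood at 8.75 and 8.97 after PBS and at 10.22 and 10.38 after LPS, a rise of 1.44 (SE 0.111, adjusted p = 0.000343). In none of the 3 did the groups overlap. The other rises were those of Cxcl2 (1.19), Ier3 (0.65), Ptgs2 (0.59) and Nfkbiz (0.49), and the PBS levels of Cxcl2 and Ptgs2 also lay under the lower quartile. With 1 array left out, 2 of these 4 rises were lost: Ptgs2 without LPS replicate 2 (adjusted p = 0.142), and Nfkbiz without LPS replicate 1 (0.0649) or 2 (0.129). Over their alternatives the adjusted p ran from 0.0083 to 0.466 for Ptgs2 and from 0.0207 to 0.301 for Nfkbiz. The targets that did not pass ran from -0.31 for Calcrl to 0.34 for Cxcl1, and included Il10 (0.28), Csf2 (0.12), Rel (-0.07) and Tfrc (0.02). Il10 and Csf2 lay under the lower quartile in both groups, so a change in them may have been missed.

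Other regulators of mRNA stability held 2 rises (2.39% of all genes) and 0 falls (1.27%) among 16, with a median of -0.02. N4bp1, which encodes an RNase related to Regnase-1, had log2 values of 10.61 and 10.28 after PBS and of 10.99 and 11.10 after LPS, a change of 0.60 (SE 0.124, limma adjusted p = 0.0442). Zc3h12c, a paralog of Zc3h12a, had 9.12 and 9.15 after PBS and 9.67 and 9.67 after LPS, a change of 0.54 (SE 0.0860, adjusted p = 0.0148). Groups did not overlap in either gene. The call of N4bp1 was lost when PBS replicate 3 (adjusted p = 0.0598) or LPS replicate 2 (0.121) was left out, and that of Zc3h12c when LPS replicate 1 (0.0533) or 2 (0.0583) was. Over their alternatives the adjusted p ran from 0.00296 to 0.497 for N4bp1 and from 0.0116 to 0.245 for Zc3h12c. The paralogs of Zfp36 gave 0.04 (Zfp36l1) and -0.17 (Zfp36l2).

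In the signalling chain that such regulators restrain, 3 of 17 genes rose (2.39% of all genes) and 0 fell (1.27%), and the median was -0.01. Myd88, the adaptor of TLR4, rose by 0.67 (SE 0.100, limma adjusted p = 0.0110), from 11.15 and 11.03 after PBS to 11.68 and 11.84 after LPS. Of the TNF receptor genes in the list, Tnfrsf1b rose by 0.52 (SE 0.100, limma adjusted p = 0.0339), and Tnfrsf1a did not pass (0.03, adjusted p = 0.957). The kinase gene Map3k8 rose by 0.49 (SE 0.0878, adjusted p = 0.0252). Leaving out LPS replicate 2 ended the call of Tnfrsf1b (adjusted p = 0.174), and leaving out PBS replicate 1 (0.0509), LPS replicate 1 (0.0798) or LPS replicate 2 (0.106) ended that of Map3k8. Over their alternatives the adjusted p ran from 0.0253 to 0.43 for Tnfrsf1b and from 0.0197 to 0.298 for Map3k8. Tlr4 itself (-0.01) and Traf6 (0.08), a ubiquitin ligase that A20 acts on, did not pass. With all 35556 probe sets in the fit, 4 of the 12 rises in these lists passed: Ccl3, Il6, Tnf and Ier3.

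Other ubiquitin ligases, adaptors and deubiquitinases, listed beside A20 and CYLD, held 0 calls among 15, with a median of -0.0026. Of all genes 3.66% were called in either direction. The deubiquitinase gene Usp4 gave -0.0026 and the A20 adaptor gene Tax1bp1 0.02. Both signs turned under some alternatives. Other brakes near the receptors held 0 calls among 11, with a median of -0.09. Both counts of 0 are near the share over all genes. The phosphatase genes Ptpn6 and Inpp5d gave 0.07 and -0.09, and the sign of Inpp5d turned without PBS replicate 1. Further genes of these lists were named after their values were seen. Rnf31, a subunit of the linear ubiquitin ligase, gave 0.46 (limma adjusted p = 0.108, and 0.00979 to 0.556 over its alternatives) and passed without PBS replicate 1, at 0.63. Dusp1, a phosphatase of MAP kinases, gave -0.44 (adjusted p = 0.150, and 0.00756 to 0.595 over its alternatives) and passed without PBS replicate 3, at -0.64. Nlrc3, which encodes an inhibitory receptor of the NLR family, gave -0.40 with an adjusted p of 0.0512 in limma, close to the threshold. It passed under 4 alternatives, and its adjusted p ran from 0.0384 to 0.283 over all of them. Ndfip1, of the same list, also gave -0.40 (limma adjusted p = 0.0744) and did not pass under any alternative.

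**Figure D3:**
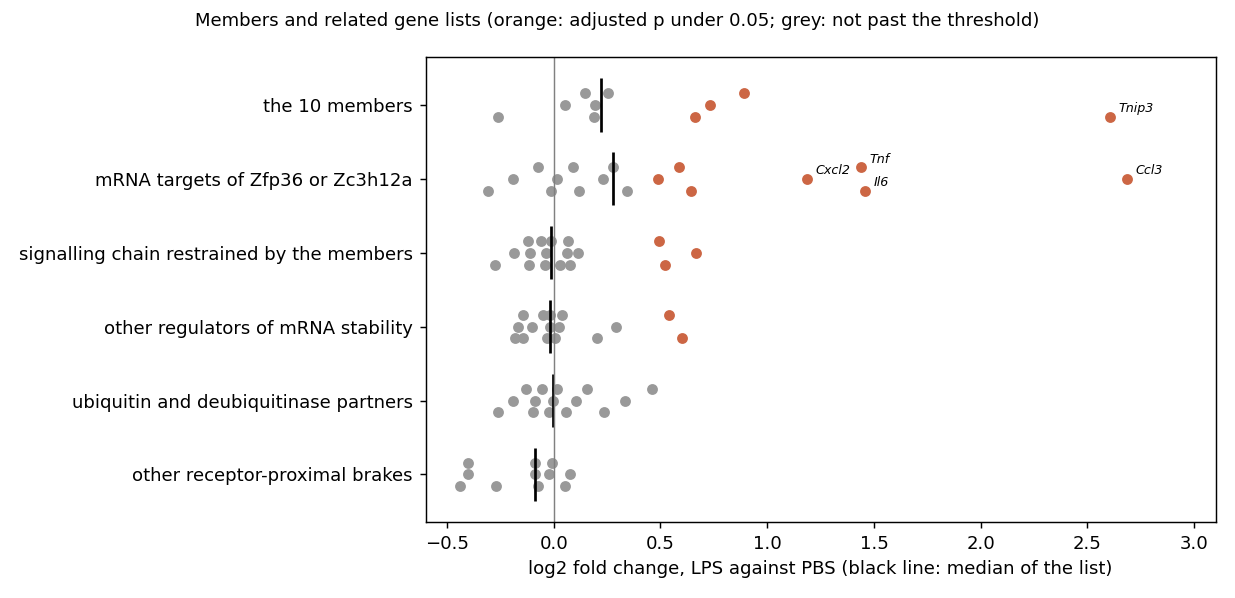
Log2 fold change after LPS against PBS (horizontal axis) of each measured gene of the 10 members and of 5 related lists; orange points passed at an adjusted p under 0.05, grey points did not, and black lines are list medians. The members and the mRNA targets have medians of 0.22 and 0.28, and the other lists lie between -0.09 and -0.0026.

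The 4 rises stood with any array left out. The log2 fold change then ran from 2.52 to 2.69 for Tnip3, from 0.76 to 1.02 for Tnfaip3, from 0.65 to 0.82 for Traf1 and from 0.58 to 0.75 for Tnip1, and the highest limma adjusted p among these was 0.0453, for Tnip1. In these fits 1 group has a lone array, which is taken to vary like the arrays of the other group. With all probe sets in the fit, Tnfaip3 and Traf1 passed only narrowly (limma adjusted p = 0.0436 and 0.0449). With each gene's own spread alone, in an unmoderated linear model, 0 of the 10 genes passed. The adjusted p in that model was 0.390 for Tnfaip3, 0.361 for Traf1 and 0.255 for Tnip3. That model called 0 of all genes, with 2185 at an unadjusted p under 0.05.

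**Figure D4:**
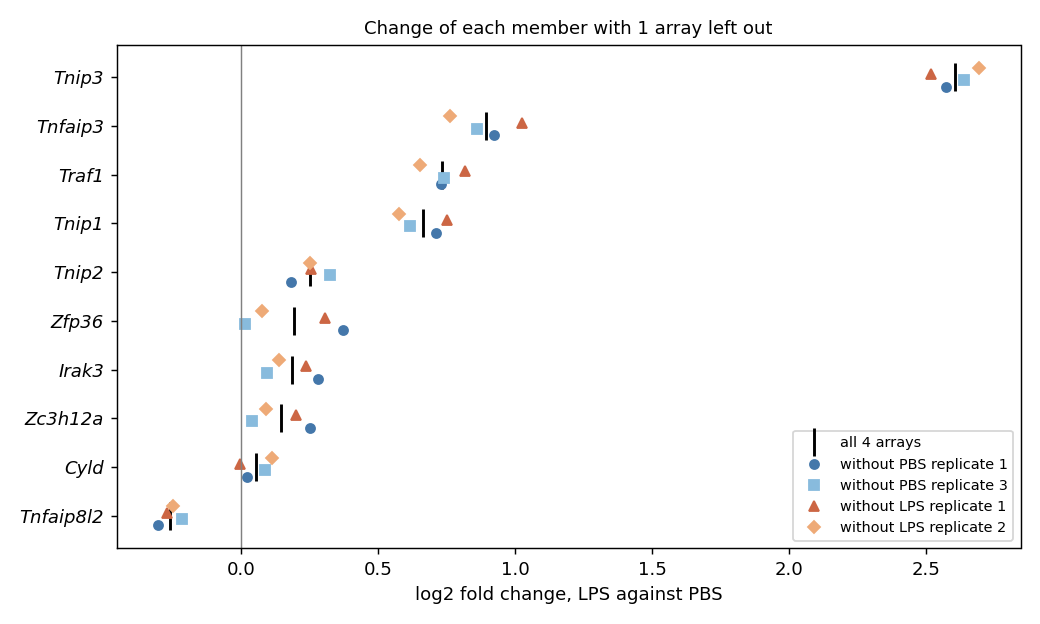
Log2 fold change of each gene (horizontal axis) with all 4 arrays (black ticks) and with 1 array left out (coloured symbols, 1 for each array). Tnip3, Tnfaip3, Traf1 and Tnip1 stay at 0.58 or above, Zfp36 runs from 0.013 to 0.37, and Cyld crosses 0.

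Array medians lay between 8.01 and 8.03, and no batch is given in the labels. Across genes, which are not independent replicates, arrays of a group correlated at 0.995 (PBS) and 0.997 (LPS) and arrays of different groups at 0.988 to 0.990. Marrow markers were present at high values, among them S100a8 of neutrophils (13.32 to 13.44 over the arrays) and Alas2 of erythroid cells (12.73 to 12.90). Some markers of cell types also moved with the groups. Over all genes 2.39% rose and 1.27% fell, and no marker list was tested against these shares. All 8 neutrophil markers had negative values, with a median of -0.25, but those of S100a8 (-0.07), S100a9 (-0.07) and Cxcr2 (-0.06) were small. Of the 8, 2 fell, Ly6g (-1.14, limma adjusted p = 0.00935) and Retnlg (-0.76, adjusted p = 0.0171). With all probe sets in the fit these stood at 0.0820 and 0.103. The summed linear level of the 8 was 59037 to 63920 after PBS and 46499 to 51692 after LPS. Of 6 monocyte and macrophage markers 2 rose, Fcgr1 (1.57, limma adjusted p = 8.09e-05) and Adgre1 (0.56, adjusted p = 0.0286). In this list 3 values were positive and 3 negative, with a median of 0.04. The summed levels, which include Fcgr1, were 6665 to 7074 after PBS and 8155 to 8367 after LPS. The call of Adgre1 was lost when PBS replicate 1 (0.0550) or LPS replicate 1 (0.0912) was left out, within a range of 0.00656 to 0.435 over its alternatives. Of 7 stromal markers 1 fell, Lepr (-0.59, adjusted p = 0.0178), whose call ended when LPS replicate 1 was left out (0.0616) and whose adjusted p ran from 0.00669 to 0.389 over its alternatives. The stromal sum stood at 12866 in PBS replicate 1 and 24597 in PBS replicate 3, with 18364 to 19189 after LPS. The 7 B-cell markers held 0 calls, and all had negative values, with a median of -0.15. They summed to 15546 in LPS replicate 1 and 21392 in LPS replicate 2, with 20268 to 20449 after PBS. Natural killer markers held 1 rise, Prf1 (0.50), and 1 fall, Klrd1 (-0.89), among 8. Prf1 had adjusted p-values of 0.0512 without PBS replicate 3, 0.106 without LPS replicate 1 and 0.0822 without LPS replicate 2, within 0.0189 to 0.371 over its alternatives. Of 8 endothelial markers 2 fell, Stab2 (-1.26) and Tek (-0.89), while 5 had positive values and the median was 0.05. There were 0 calls among 7 T-cell, 6 erythroid and 5 megakaryocyte markers. Values were negative for 6 of the T-cell, all 6 of the erythroid and 2 of the megakaryocyte markers. The medians of these lists were -0.15, -0.22 and 0.04. The part of these shifts in the members' changes was not tested.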

How the data were processed

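RNA from 4 marrow samples was hybridised to GeneChip Mouse Gene 1.0 ST arrays, 1 array a sample, and the number of arrays limits the precision. The authors deposited a table of log2 levels, 1 for each probe set, which they computed with RMA, per the submitters' processing notes. Neither its version nor its annotation is given in the sources used here. Of 35556 probe sets, 21789 carried 1 gene symbol and were used, 1621 carried several, and 12146 were unnamed here. The probe set with the highest mean stood for each gene, which left 19938 genes with no filter on low values.

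LPS was compared with PBS in limma 3.58.1 (R 4.3.3; lmFit and eBayes, two-sided, all 4 arrays, no covariate). There were 2 residual and 5.59 prior degrees of freedom, and Benjamini-Hochberg adjustment ran over all genes. On 10 simulated sets with 200 changed genes, 20.7% of changes of 0.5 log2, 96.7% of changes of 1 and 100% of changes of 2 were recovered, and 4.50% of calls were false. Promoters came from RefSeq (GRCm38.p6). Members and lists were chosen with earlier results of these data known. All members were named, and of each list up to 3 rises and 3 falls, or the 2 genes of highest level where none passed. Other genes were named after their values were seen. Alternatives covered the probe sets, the variance model, array weights, scaling, low values, the threshold and leaving out each array. The plots were made in matplotlib 3.10.9 under Python 3.11.15.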

Additional observations from a re-analysis of the deposited data

How the results depend on the processing

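Of the 10 members, 9 kept their direction under every alternative run, and Cyld turned to -0.0048 without LPS replicate 1 (range -0.0048 to 0.11 with 1 array left out). The count of rises was 3 with all probe sets in the fit and at an adjusted p under 0.01 (Tnip1 lost in both), 0 in the unmoderated model, and 2 with only genes above the median level, where Tnip3 and Traf1 were not tested. It was 4 under each of the others and with any array left out, and the count of falls was 0 throughout. The members' median ran from 0.19 to 0.32 with 1 array left out. Over all genes, rises numbered 286 at an adjusted p under 0.01, 0 in the unmoderated model and 385 to 696 with 1 array left out. Falls numbered 63 with all probe sets, 58 at 0.01, 0 unmoderated and 127 to 423 with 1 array left out. Of the list genes, 12 rose. This became 4 with all probe sets, 5 at 0.01, 0 unmoderated and 6 to 12 with 1 array left out, the 6 without LPS replicate 2. Falls among them numbered 0, and 1 (Nlrc3) with the robust trend, with the mean over probe sets, with genes above the median level and with genes above the lower quartile. With 1 array left out they numbered 0 to 1, the 1 being Dusp1 without PBS replicate 3. Without PBS replicate 1, Rnf31 passed as a rise and Map3k8 did not. Signs turned for Usp4 (0.0040 with arrays centred, and -0.025 to 0.019 with 1 array left out), Tax1bp1 (-0.049 to 0.083 with 1 array left out) and Inpp5d (-0.21 to 0.031 with 1 array left out). The cause was not tested. Recentring or renormalising moved the median of all genes from -0.0081 to -0.0015 or -0.013. No paired analysis was possible because the groups share only replicate number 1.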

Other observations

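The promoter search over all genes gave a value outside the comparison of the members. Of the 531 tested genes with an ISRE match in the 250 bases before a start, 11.5% rose after LPS, against 1.96% of the 15083 without, and none of the 10 members held such a match. Of the 227 genes with a CArG match, only 1 rose (0.441%), against 2.31% of the 15387 without. Zfp36 is among the 227 and did not pass. A gene with several starts counted as holding a motif if any of its windows did.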
